A study of Mus musculus with 9 samples.

Results

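Toll-like receptors and the proteins that hand lipopolysaccharide (LPS) to TLR4 were followed through 10 genes: Tlr1, Tlr2, Tlr3, Tlr4, Tlr5, Tlr6, Tlr9, Cd14, Ly96 and Lbp. They were taken by symbol from the platform annotation, which listed 18193 genes with a probe set of their own, and 15 probe sets carried exactly 1 of the 10 symbols. For a gene with several, the probe set of highest mean over the 9 arrays stands for it below, and the others are given beside it. The cells were m-ICcl2, a single mouse small intestinal epithelial line of C57BL/6 origin from fetal tissue, carrying SV40 large T antigen as a transgene in every condition. Which promoter drives the transgene was not given in the labels used here. Total RNA was hybridised to Affymetrix arrays, 3 per condition, labelled as biological replicates. Cells were unstimulated, exposed to LPS at 100 ng/mL for 6 h, or given the same 6 h exposure and then 90 h in LPS-free medium; the series design calls the last condition tolerant. No culture time is labelled for the unstimulated cells, so for tolerant cells a longer culture and the earlier LPS cannot be told apart.

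Toll-like receptors are membrane proteins that recognise microbial products and signal through adaptors bound to an intracellular TIR domain. LPS is extracted from bacterial membranes by LPS-binding protein (Lbp), passed to CD14 and loaded onto MD-2 (encoded by Ly96), which is held by the ectodomain of TLR4. TLR2 pairs with TLR1 or TLR6 and detects bacterial lipoproteins, TLR5 detects flagellin, and TLR3 and TLR9 detect nucleic acids inside endosomes. Intestinal epithelium faces dense bacterial populations and is known for restrained expression of several of these receptors, and hyporesponsiveness after a first LPS contact is known as endotoxin tolerance.

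Levels are log2 intensities after the authors' GCRMA processing, which draws low probe sets towards a common floor, and differences there were not ranked. The floor was set at log2 4, and a gene was tested if it reached that level on at least 3 of the 9 arrays, as 9431 genes (51.8%) did. The array medians over these genes ran from 7.62 to 7.84. The second principal component (30.9% of the variance) put the replicate 1 array of each condition apart from replicates 2 and 3. The beta-actin controls set replicate 1 apart too: the 3′ end exceeded the 5′ end by 0.40 to 0.72 (log2) there and by 1.02 to 1.38 elsewhere. Its part in the results was not tested, and values from a fit blocked on replicate number, or without replicate 1, are given beside the results they alter. Of the epithelial markers, Krt8 (12.72 to 13.51), Krt18, Vil1 and Cldn4 lay above log2 4 on every array, whereas Cdh1, Krt19 and Cdx2 lay below it on every array and Epcam on all arrays but the tolerant ones (highest 6.07). Of 12 macrophage and leukocyte markers, 9 stayed below log2 4 on all arrays, among them Ptprc, Adgre1, Itgam, Tyrobp and Cd53. Csf1r and Cd68 lay above it on every array. Spi1 was above it in unstimulated cells (5.94, 4.69 and 4.23) and below it in tolerant cells (3.1, 3.55 and 2.65). Its 6 h LPS arrays lay on both sides. Summed intensity over the 12 was 1250 to 2480 in unstimulated, 780 to 2130 in 6 h LPS and 1160 to 1490 in tolerant cells. Most of it came from Csf1r in unstimulated and 6 h LPS cells. Without Csf1r the sums were 120 to 161, 103 to 127 and 841 to 909, where the tolerant value is mostly Cd68. All 7 fibroblast and all 4 endothelial markers were below log2 4 throughout.

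Of the 10 genes, only those of the TLR4 arm were above the floor in unstimulated cells. Tlr4, Cd14, Ly96 and Lbp were above log2 4 on all 9 arrays, and Tlr2 was above it on the 3 arrays at 6 h of LPS and on no other. Tlr1, Tlr5, Tlr6 and Tlr9 stayed below log2 4 on every array, and Tlr3 on all but 1. In comparison, 46.4% of all genes on the array never reached this level. A low probe set can mean little transcript or a probe set that binds poorly, and bulk RNA cannot tell fewer expressing cells from less RNA per cell.

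**Figure D1:**
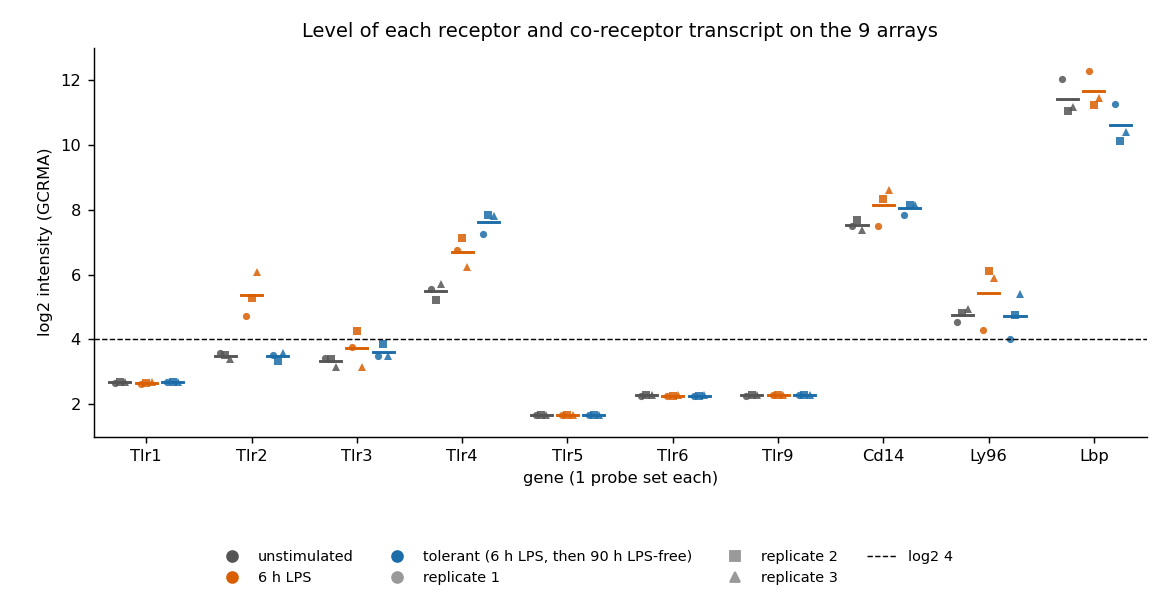
Log2 intensity (y axis) of the probe set used for each of the 10 genes (x axis) on the 9 arrays. Points are arrays, with colour for the condition and symbol for the replicate number, short bars are means of 3 arrays, and the dashed line is log2 4. Levels are to be compared between conditions of 1 gene, not between genes. The means of Tlr4 were 5.50, 6.70 and 7.63, and Tlr2 crossed the line at 6 h alone, while Tlr1, Tlr5, Tlr6 and Tlr9 lay flat below it.

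The receptors at the floor spread very little. Tlr5, the flagellin receptor, read 1.65 to 1.67 over the 9 arrays. Tlr9, which recognises unmethylated CpG DNA, read 2.26 to 2.28, and Tlr6 read 2.25 to 2.28. Tlr1 read 2.62 to 2.69. At values this close to the floor no order of conditions was read. Tlr3, the receptor for double-stranded RNA, had 2 probe sets. The one used (1422782_s_at) read 3.43, 3.40 and 3.16 in unstimulated cells, 3.76, 4.27 and 3.16 at 6 h and 3.48, 3.87 and 3.48 in tolerant cells. The single value above log2 4 was thus 6 h LPS replicate 2, and the array of replicate 3 at 6 h equalled its unstimulated partner. The other Tlr3 probe set (1422781_at) stayed between 3.39 and 3.53. None of these 5 genes was tested.

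Tlr4, the signalling receptor for LPS, was higher at each step from unstimulated to 6 h to tolerant cells. It read 5.56, 5.23 and 5.71 in unstimulated cells, 6.76, 7.12 and 6.22 at 6 h of LPS, and 7.26, 7.83 and 7.81 in tolerant cells. No array of a later step overlapped with one of an earlier step. Tolerant cells held 4.39-fold more Tlr4 signal than unstimulated cells, a log2 change of 2.13 (SE 0.267, 95% confidence interval 1.53 to 2.74), and this rise passed limma's moderated test (adjusted p = 0.000939). At 6 h the level was 2.31-fold that of unstimulated cells (log2 change 1.21, interval 0.60 to 1.81) without passing (adjusted p = 0.115), and it passed with the replicate block (adjusted p = 0.0319). From 6 h to the tolerant state it was 1.90-fold higher (interval 0.32 to 1.53 on the log2 scale), just missing the threshold (adjusted p = 0.0523) and passing with the block (adjusted p = 0.0277). Leaving out 1 array brought this last difference past the threshold when the array was 6 h LPS replicate 2 (adjusted p = 0.0392) or tolerant replicate 1 (adjusted p = 0.0489). The 6 h difference passed without 6 h LPS replicate 3 (adjusted p = 0.0267).

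The 4 probe sets of Tlr4 did not give 1 size for these steps. The second (1418163_at) read 4.87, 4.67 and 5.38 in unstimulated cells, 5.03, 6.08 and 5.74 at 6 h and 7.03, 7.44 and 7.22 in tolerant cells. Its 6 h and unstimulated arrays overlapped, and most of its change fell between 6 h and the tolerant state. Another (1442827_at) read 2.77, 3.11 and 3.37, then 4.05, 4.58 and 3.96, then 4.59, 4.73 and 4.58, with its unstimulated arrays all below log2 4, so that its first step has no exact size. The remaining one (1430695_at) stayed at the floor, between 2.63 and 2.66. When every probe set was fitted as its own feature, 3 of the 4 Tlr4 probe sets passed for tolerant against unstimulated cells, with log2 changes of 2.13, 2.26 and 1.55 (adjusted p = 0.00136, 0.00156 and 0.00225). The last of these, 1442827_at, reached log2 4 on LPS-exposed arrays alone and so entered the test through the groups where it was high. Its pass adds no support, and its changes from unstimulated cells are not exact sizes. Between 6 h and unstimulated cells the changes were 1.21, 0.64 and 1.11 and none passed (adjusted p = 0.124, 0.240 and 0.124). Between tolerant cells and 6 h they were 0.93, 1.61 and 0.43, and only 1418163_at passed (adjusted p = 0.0105, against 0.0636 and 0.275).

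**Figure D2:**
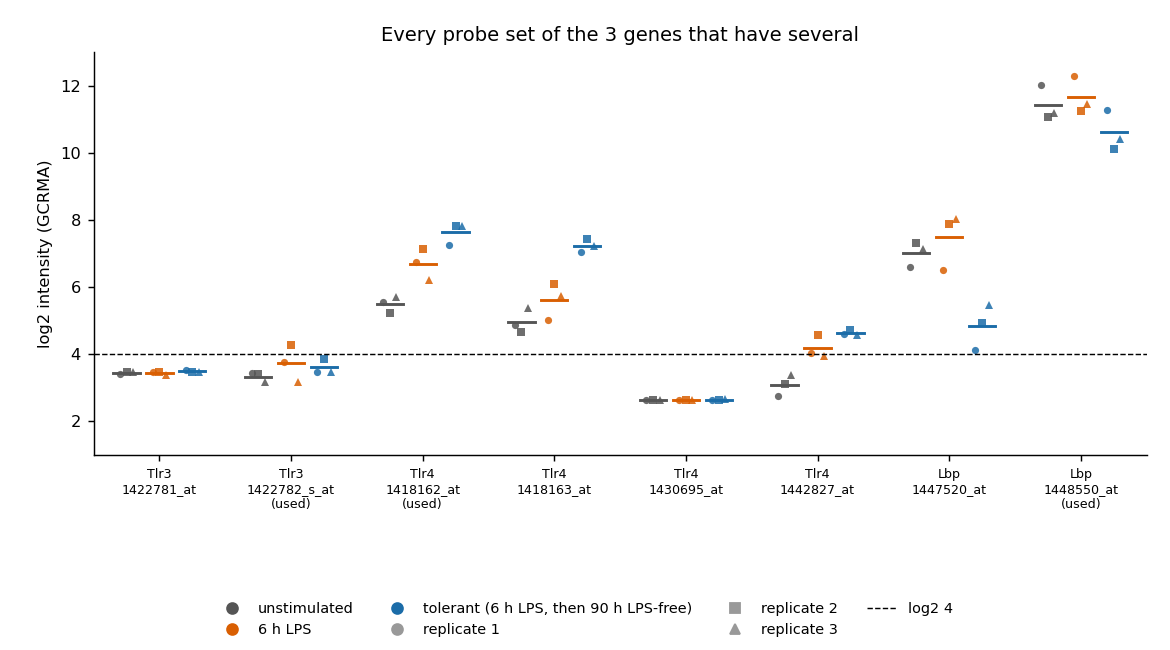
Log2 intensity (y axis) on the 9 arrays for all 8 probe sets (x axis) of the genes with several, with the symbols as in the plot of levels by gene. Of the Tlr4 probe sets, 3 rose from unstimulated to tolerant cells and 1430695_at stayed between 2.63 and 2.66; both Lbp probe sets had their lowest means in tolerant cells, 4.84 and 10.60.

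Cd14, the co-receptor that transfers LPS to the TLR4 and MD-2 pair, was above the floor on all arrays and passed in no comparison of the model without a block. Its levels were 7.51, 7.70 and 7.38 in unstimulated cells, 7.49, 8.32 and 8.61 at 6 h and 7.85, 8.16 and 8.15 in tolerant cells. The tolerant arrays all lay above the unstimulated ones, whereas at 6 h replicate 1 was no higher than unstimulated cells and replicates 2 and 3 were the highest of all. The difference was 0.61 at 6 h (interval -0.01 to 1.23, adjusted p = 0.222) and 0.53 in tolerant cells (interval -0.09 to 1.15, adjusted p = 0.192), and neither passed, also not with the replicate block (adjusted p = 0.0657 and 0.072). With a block of replicate 1 against the other replicates, the 6 h difference passed (adjusted p = 0.0467). From replicates 2 and 3 alone these differences were 0.93 (adjusted p = 0.115) and 0.62 (adjusted p = 0.0324), so the tolerant one passed there. It also passed when 6 h LPS replicate 1 was left out (adjusted p = 0.0454). Between tolerant cells and 6 h the interval was -0.71 to 0.53.

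Ly96, whose product MD-2 forms the LPS pocket beside TLR4, varied more between replicates than between conditions. It read 4.53, 4.80 and 4.94 in unstimulated cells, 4.30, 6.12 and 5.89 at 6 h, and 4.01, 4.76 and 5.40 in tolerant cells. Replicates 2 and 3 were higher at 6 h by 1.32 and 0.96, whereas replicate 1 differed by -0.23. None of the 3 comparisons passed: the log2 change was 0.68 at 6 h (interval -0.43 to 1.79, adjusted p = 0.432), -0.03 in tolerant against unstimulated cells (interval -1.15 to 1.08, adjusted p = 0.972) and -0.71 from 6 h to tolerant (interval -1.83 to 0.40, adjusted p = 0.409). A level up to 3.47-fold higher at 6 h thus lies within the interval. From replicates 2 and 3 only, the fall from 6 h to tolerant cells passed (-0.93, adjusted p = 0.0348).

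Lbp, the serum protein that carries LPS to CD14, was lower in tolerant cells in every same-numbered pair. The probe set used (1448550_at) read 12.03, 11.06 and 11.17 in unstimulated cells, 12.28, 11.25 and 11.46 at 6 h and 11.28, 10.12 and 10.41 in tolerant cells. Replicate 1 was the highest array of each condition, and the conditions overlapped for that reason. Within pairs the difference of tolerant from unstimulated cells was -0.75, -0.94 and -0.76, and that of tolerant from 6 h cells was -1.0, -1.12 and -1.06. Over all tested genes, 43.2% and 29.5% were lower in all 3 pairs of these comparisons. The log2 change was -0.82 against unstimulated cells (SE 0.396, adjusted p = 0.163) and -1.06 against 6 h (SE 0.396, adjusted p = 0.121), neither of which passed. With the replicate block both passed, as the standard error dropped to 0.115 (adjusted p = 0.000913 and 0.000436), and both passed from replicates 2 and 3 alone (-0.85, adjusted p = 0.00924, and -1.09, adjusted p = 0.00684). At 6 h Lbp was 0.25 higher than in unstimulated cells (interval -0.65 to 1.14, adjusted p = 0.733).

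The other Lbp probe set (1447520_at) showed a larger fall and did not need the block. It read 6.61, 7.30 and 7.13 in unstimulated cells, 6.52, 7.89 and 8.04 at 6 h and 4.12, 4.94 and 5.47 in tolerant cells. Every tolerant array lay below every other array. Of all tested genes, 15.4% lay wholly lower in tolerant than in 6 h cells. The share against unstimulated cells was not counted. Fitted as its own feature it fell by 2.17 against unstimulated cells (adjusted p = 0.0117) and by 2.64 against 6 h (adjusted p = 0.00862). Here replicate 1 was the lowest array of each condition, the reverse of its place on the other probe set.

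Tlr2, the lipoprotein receptor, was the member with a transient pattern. It read 3.57, 3.51 and 3.40 in unstimulated cells, 4.72, 5.28 and 6.07 at 6 h, and 3.52, 3.34 and 3.58 in tolerant cells. All 3 arrays at 6 h were above every other array, and all 6 others were below log2 4. Because Tlr2 entered the test only through its arrays at 6 h, it had to differ there, and folds are lower bounds against log2 4. Tlr2 was at least 2.56-fold higher at 6 h than in unstimulated cells without passing (log2 change 1.86, SE 0.297, adjusted p = 0.072), and it passed with the replicate block (adjusted p = 0.0272). It also passed without 6 h LPS replicate 1 (adjusted p = 0.0262) or 6 h LPS replicate 3 (adjusted p = 0.0201). From 6 h to the tolerant state it fell by at least the same 2.56-fold (log2 change -1.88, interval -2.55 to -1.20, adjusted p = 0.00425). Tolerant and unstimulated cells, both at the floor, differed by -0.01.

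The promoter window of Tlr2 is shown because Tlr2 was the receptor that crossed the floor at 6 h, and that of Tlr9 because it stayed flat. Windows run from 250 bases before to 50 bases after the RefSeq start (build GRCm38.p6) and are written 5′ to 3′ along the gene: chr3:83841559-83841858, minus strand, for Tlr2 and chr9:106222348-106222647, plus strand, for Tlr9. Capitals mark every match, on either strand, to the outline of a kappa-B site (GGG, any 5 bases, then CC) or of an AP-1 site (TGANTCA).
Tlr2: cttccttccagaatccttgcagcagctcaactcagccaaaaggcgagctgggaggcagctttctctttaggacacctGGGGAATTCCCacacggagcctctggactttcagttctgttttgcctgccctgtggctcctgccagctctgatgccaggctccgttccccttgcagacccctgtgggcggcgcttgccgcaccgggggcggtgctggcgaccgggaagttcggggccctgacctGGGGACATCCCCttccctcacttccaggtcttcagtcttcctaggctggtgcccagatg
Tlr9: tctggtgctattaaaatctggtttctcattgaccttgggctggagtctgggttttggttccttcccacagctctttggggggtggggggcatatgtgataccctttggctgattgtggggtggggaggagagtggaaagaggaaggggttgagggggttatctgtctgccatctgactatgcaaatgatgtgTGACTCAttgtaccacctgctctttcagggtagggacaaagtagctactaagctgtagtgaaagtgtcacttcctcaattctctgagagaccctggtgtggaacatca
The Tlr2 window held 2 separate stretches matching the kappa-B outline once its 5 overlapping matches were joined, GGGGAATTCCC from -173 to -163 and GGGGACATCCCC from -9 to 3 relative to the start (position 1, with no 0). The first of these also holds GGAA, the ETS core, on both strands. Such a match is common: 50.8% of the 32851 windows in the table held at least 1. The Tlr9 window held none and had 1 match to TGANTCA, at -58 to -52, which 7.81% of windows share. Among the other floor receptors, the Tlr3 window had 3 stretches matching the kappa-B outline, the Tlr5 window 1, 1 of 2 Tlr6 windows 1 and the 2 Tlr1 windows 0. The kappa-B letters were thus present in windows of receptors at or near the floor, and their part in the level of Tlr2 was not tested. GGAA (96% of windows) was in all 8 windows of these genes, and TATAAA (13.6%) only in 1 Tlr6 window. Of the 10 genes, 6 matched the table; Tlr4, Cd14, Ly96 and Lbp did not.

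Counted over the family, the number of members that passed differed with the handling of replicates, the probe set and single arrays left out. At 6 h against unstimulated cells 0 of the 5 tested members passed, where limma called 0.0636% of all tested genes (6 genes, and 2163 with an unadjusted p below 0.05), and 2 passed with the replicate block (Tlr2 and Tlr4), where 24% of all genes did. For tolerant against unstimulated cells 1 of 5 passed (Tlr4), beside 26.2% of all genes, and 2 with the block (Tlr4 and Lbp), beside 48.6%. For tolerant cells against 6 h 1 of 5 passed (Tlr2, with the limit on its entry given above), beside 13.1%, and 3 with the block (Tlr2, Tlr4 and Lbp), beside 31.7%. Replicates 2 and 3 alone gave 0, 3 (Tlr4, Cd14 and Lbp) and 4 members (Tlr4, Tlr2, Ly96 and Lbp), beside 0.0848%, 38.3% and 22.5% of all genes. With every probe set as a feature 0, 2 (Tlr4 and Lbp) and 3 members (Tlr4, Tlr2 and Lbp) passed on at least 1 probe set, beside 0.054%, 23.2% and 10.8% of 16655 probe sets. Single arrays moved the counts over all genes. Without 6 h LPS replicate 3 the 6 h comparison called 696 genes instead of 6, Tlr2 and Tlr4 among them. For tolerant against unstimulated cells the 2470 genes called became 1515 when unstimulated replicate 2 was left out, and 1400 or 1543 when the tolerant array of replicate 2 or of replicate 3 was. Against 6 h the 1238 became 766, 677 and 704 without tolerant replicates 1, 2 and 3. With 5 members tested, nothing particular to the family is read from these counts.

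Arrays of some members did not overlap in comparisons where the test did not call them. At 6 h, Tlr2 and Tlr4 lay wholly above unstimulated cells, as 12.9% of all tested genes did. In tolerant cells Tlr4 and Cd14 lay wholly above unstimulated cells, beside 22.6% of all genes. Against 6 h, Tlr4 was wholly higher in tolerant cells, beside 15.9%, and Tlr2 wholly lower, beside 15.4%. All tested genes together had a median log2 change of -0.11, -0.07 and 0.01 in the 3 comparisons. The comparisons share arrays pairwise and are given side by side without a test between them.

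**Figure D3:**
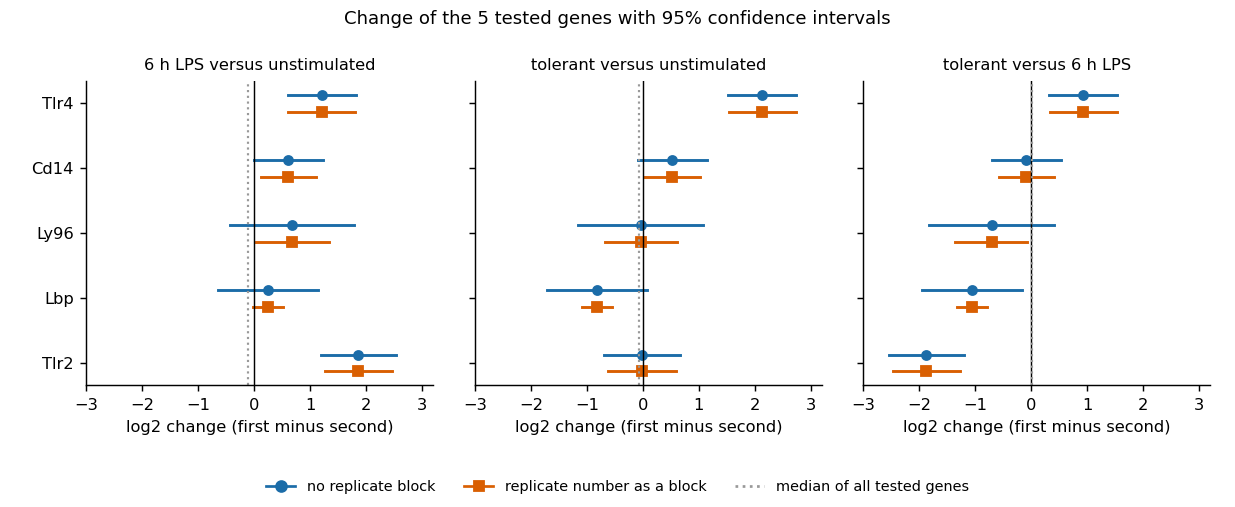
Log2 change (x axis) of the 5 tested genes (y axis) in the 3 comparisons, with 95% confidence intervals from limma without (circles) and with (squares) the replicate number as a block; the dotted line is the median of all tested genes. The block narrowed the interval of Lbp most, whose standard error went from 0.396 to 0.115, and left that of Tlr4 nearly as it was (0.267 and 0.260).

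**Figure D4:**
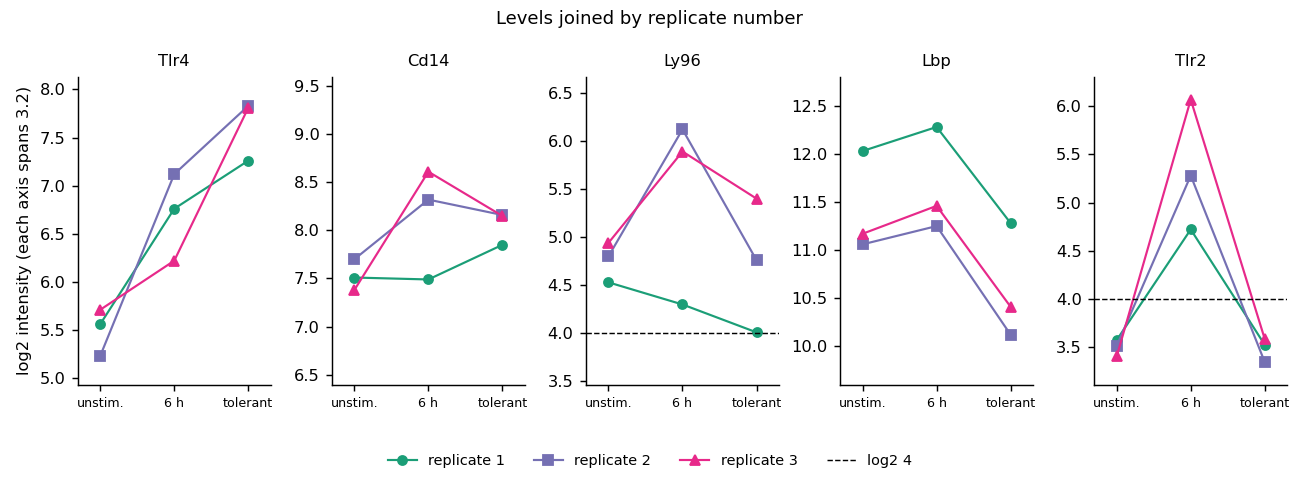
Log2 intensity (y axis, each panel spanning the same range) of the 5 tested genes in unstimulated, 6 h LPS and tolerant cells (x axis), with arrays of the same replicate number joined. The 3 Lbp lines run in parallel, with replicate 1 on top, whereas for Ly96 replicates 2 and 3 are higher at 6 h by 1.32 and 0.96 and replicate 1 is not.

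The 5 tested genes did not share 1 pattern over the 9 arrays. As a description, and with condition and replicate both shared by the points, Pearson's r was 0.00 between Tlr2 and Tlr4, 0.72 between Cd14 and Ly96, 0.64 between Tlr2 and Ly96, and -0.52 between Tlr4 and Lbp. The genes most like Tlr4 were Dmxl2 (r = 0.991), Arfgef1 (0.989) and Mid2 (0.989). The means of Mid2 were 4.50, 5.51 and 6.29 in unstimulated, 6 h and tolerant cells. Most like Tlr2 were Zc3h12a (r = 0.993), which encodes an RNase that degrades inflammatory transcripts, Neurl3 (0.946) and Cfp (0.942), the gene of the complement regulator properdin. Zc3h12a had means of 3.59, 5.02 and 3.71, so its mean was above log2 4 at 6 h alone. A gene low in the other conditions enters the test through its 6 h arrays, so a peak shared with Tlr2 can be partly built in. Nearest to Lbp were Bicc1 (0.991), Vps33b (0.982) and Calr (0.977), the gene of the endoplasmic reticulum chaperone calreticulin, with means of 12.45, 12.41 and 11.46. For Cd14 they were Tmed8 (0.939), Zadh2 (0.938) and Marveld2 (0.905), and for Ly96 Ormdl1 (0.964), Ccnh (0.959) and Ypel2 (0.956).

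The rest of the family and its RP105 complex were also at the floor. Of 7 further genes, Tlr7, Tlr8, Tlr12, Tlr13, Cd180 and Ly86 were on the array and all 6 lay below log2 4 on every array, with Cd180 at 2.32 to 2.35. Tlr11 was not analysed here.

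Of 9 genes for chaperones and proteases that mature Toll-like receptors, 6 were tested, and none passed in any comparison. Over all tested genes 0.0636%, 26.2% and 13.1% passed in the 3 comparisons. Hsp90b1, which encodes gp96, the folding chaperone of most of these receptors, had a level of 11.58 ± 0.28 in unstimulated cells, 12.51 ± 0.38 at 6 h and 12.02 ± 0.22 in tolerant cells (SD, n = 3). It was 1.90-fold higher at 6 h (adjusted p = 0.115, and 0.0319 with the block). Its co-chaperone gene Cnpy3 varied between 5.52 and 7.50 without passing (adjusted p = 0.796, 0.672 and 0.930 in the 3 comparisons). Lgmn, the gene of the lysosomal protease legumain, was 1.82-fold higher in tolerant than in unstimulated cells (adjusted p = 0.0906, and 0.00173 with the block) and 1.85-fold higher than at 6 h (adjusted p = 0.126, and 0.00247 with the block). Unc93b1, the escort of the endosomal receptors, lay between 2.39 and 2.87, and the cathepsin genes Ctss (2.70 to 2.83) and Ctsk (2.28 to 2.32) were also at the floor on all arrays. The median change of the list was 0.01, 0.15 and 0.02.

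Among TIR adaptors and proximal kinases 6 of 8 genes on the array were tested, and 1 passed, for tolerant against unstimulated cells, where 26.2% of all genes did. Myd88, the adaptor used by all the receptors here but Tlr3, fell from unstimulated to tolerant cells, the opposite direction to Tlr4. It read 6.89, 6.13 and 6.11 in unstimulated cells, 5.94, 5.68 and 5.90 at 6 h and 5.46, 4.68 and 5.29 in tolerant cells. The tolerant arrays lay wholly below those at 6 h, as 15.4% of all tested genes did. From unstimulated to tolerant cells the fall was 2.35-fold (log2 change -1.23, adjusted p = 0.0108, and 0.000965 with the block). The step from unstimulated cells to 6 h was -0.54 (adjusted p = 0.269, and 0.0558 with the block), and that from 6 h to tolerant was -0.70 (adjusted p = 0.136, and 0.0188 with the block). Tirap, which bridges TLR4 and TLR2 to MyD88, did not pass (adjusted p = 0.734, 0.359 and 0.252), nor did Ticam1, the TRIF adaptor of TLR3 and TLR4 (adjusted p = 0.484, 0.975 and 0.511). Traf6 was near the floor (3.36 to 4.20) and entered the test only through its 6 h arrays, so that it had to be highest there. It was at least 1.07-fold lower in tolerant cells than at 6 h (adjusted p = 0.0731, and 0.0235 with the block). Ticam2 and Irak4 were not analysed here. The median changes of the list were -0.26, -0.17 and -0.06.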

How the data were processed

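Each array's deposited table held linear intensity values by probe set, which the authors produced with GCRMA (per the submitters' processing notes; version not given in the sources used here). This method subtracts a sequence-modelled background and normalizes between arrays, which compresses low values. Here log2 was taken without a pseudocount in R 4.3.3. Of 45101 probe sets, 34945 carried 1 gene symbol; several-symbol, unlisted and control probe sets were left out. The main model was limma 3.58.1 (lmFit, 1 mean per condition over 9 arrays, 6 residual degrees of freedom, eBayes without trend), with two-sided tests and Benjamini-Hochberg adjustment within each of 3 comparisons over 9431 genes, at 0.05. The fit was tested on simulated data with independent noise on each array. The simulated arrays carried no shift shared by replicate 1, so they do not bear on the handling of replicates. The members, gene lists, motifs and alternatives were chosen with earlier results of these data known. Named genes were all members, listed genes that passed, a few preset pathway genes, and the 3 genes of highest Pearson correlation with each tested member. A bound is the higher group's mean against log2 4.

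Replicate numbers come from the titles, which do not say what a number shares or whether replicates were separate cultures, so p-values measure the spread between these samples. Deviations from the condition means correlated at 0.16 to 0.84 over the 9 same-numbered pairs, which met the rule for pairing (over 0.1 in each). Replicates 2 and 3 correlated at 0.16 to 0.68 for same numbers and at 0.21 to 0.73 across numbers. Replicate 1 correlated at -0.74 to -0.37 with arrays of other numbers. Deviations are taken from a mean of 3 arrays, so a replicate 1 that stands apart makes replicates 2 and 3 deviate together. The rule can thus be met without pairing of replicates 2 and 3 by number. Within replicates 2 and 3 the lowest values, 0.16 and 0.21, both involved 6 h LPS replicate 3. Over all tested genes that array correlated at 0.987 with unstimulated replicate 3 and at 0.979 with 6 h LPS replicate 2. Although the pairing rule was met, the main model left replicate number out. With the block limma called 2267, 4586 and 2985 genes in the 3 comparisons, against 6, 2470 and 1238 without it. Whether a result passed thus often depended on this choice. Array data give no read depth; the number of arrays limits precision.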

Additional observations from a re-analysis of the deposited data

How the results depend on the processing

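The number of members called differed with the handling of replicates, the probe set chosen for Lbp and Tlr4, the level settings and single arrays left out. At 6 h against unstimulated cells it was 0, but 2 with the replicate block, 3 with a block of replicate 1 against the others, and 0 to 2 with each array left out in turn. For tolerant against unstimulated cells it was 1, but 2 with the mean of all probe sets, the most variable probe set, every probe set as a feature, the replicate block or the replicate 1 block, 3 from replicates 2 and 3 only, and 1 to 2 with each array left out. For tolerant cells against 6 h it was 1, but 0 with a minimum of log2 5 (Tlr2 was then not tested), 2 with 16 added before log2, 3 under the same 5 settings of probe set and block, 4 from replicates 2 and 3 only, and 1 to 2 with each array left out. Tlr4 passed for tolerant against unstimulated cells under all 24 alternatives run (log2 change 1.48 to 2.35, adjusted p 0.000183 to 0.00663). Tlr2 passed for tolerant cells against 6 h under all 23 that tested it (-2.21 to -1.09, adjusted p 0.000779 to 0.0227). The level filter admitted Tlr2 only through its 6 h arrays, so it had to differ there and these passes add no support. Without a filter its adjusted p by limma was 0.0183. The Lbp probe set used for each setting was lower in tolerant cells under all 24 in both comparisons and passed under 5 in each; the other one also passed with every probe set as a feature. At 6 h the adjusted p of Tlr2 ranged from 0.0151 to 0.333 and that of Tlr4 from 0.0212 to 0.400.

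Differences that lay near 0 changed sign. In tolerant against unstimulated cells Ly96 was 0.00 with 16 added and 0.21 from replicates 2 and 3 (-0.37 to 0.32 with arrays left out), and Tlr2 was 0.00 with a floor at log2 4 and 0.01 from replicates 2 and 3 (-0.06 to 0.06). With arrays left out Cd14 ran from -0.41 to 0.15 for tolerant cells against 6 h, and Lbp from -0.06 to 0.55 at 6 h. Receptors below log2 4 could not be ordered at this signal over background.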

Other observations

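Of 8 genes on the array for other proteins that bind or inactivate LPS, 3 were tested. Casp4 and Pltp passed for tolerant against unstimulated cells, beside 26.2% of all tested genes. Scarb1 passed for tolerant cells against 6 h, beside 13.1%. No gene of this list passed at 6 h against unstimulated cells, where 0.0636% of all genes did. Casp4, which encodes the cytosolic LPS sensor caspase-11, was below log2 4 in unstimulated cells (3.15, 3.59 and 3.02) and read 5.03, 6.08 and 5.86 at 6 h and 5.14, 6.21 and 5.97 in tolerant cells. Casp4 entered the test through the LPS-exposed arrays alone, so that it had to be higher there than in unstimulated cells. Passes against unstimulated cells thus add no support. It was at least 3.42-fold higher in tolerant cells (adjusted p = 0.00154 by limma) and at least 3.15-fold higher at 6 h (adjusted p = 0.0625, and 0.00244 with the replicate block). Pltp, the phospholipid transfer protein gene of the same lipid-transfer family as Lbp, fell 2.67-fold in tolerant against unstimulated cells (adjusted p = 0.0132), and was 1.97-fold lower than at 6 h (adjusted p = 0.0853, and 0.0423 with the block). Scarb1, a scavenger receptor gene, rose 2.47-fold from 6 h to tolerant cells (adjusted p = 0.0162). Cd36, Aoah, Alpi, Alpl and Ltf lay below log2 4 on every array.

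In the interleukin-1 receptor family, which shares the TIR domain, 2 of 6 genes on the array were tested and none passed by limma without the block. Sigirr, an inhibitory member, was 1.43-fold lower at 6 h than in unstimulated cells (adjusted p = 0.175, and 0.0456 with the block) and 1.40-fold higher in tolerant cells than at 6 h (adjusted p = 0.162, and 0.0439 with the block). Of 12 other pattern recognition receptors on the array, 11 lay below log2 4 throughout, among them Nod1 (2.10 to 2.13) and Nlrp3, and Ddx58, the cytosolic RNA sensor gene, read 6.01 to 6.48 without passing.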
